A study of Homo sapiens with 3 samples.

Results

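The 6 HES genes described here, HES1, HES2, HES4, HES5, HES6 and HES7, were followed through the peak lists of 2 chromatin immunoprecipitation sequencing (ChIP-seq) libraries. One list came from an antibody against RBPJ (also called CBF1) and the other from an antibody against L3MBTL3, each from 1 library of MDA-MB-231, a human breast cancer cell line grown without a stated treatment. An input DNA library of the same cells was not analysed here. The design asked where the 2 proteins lie together on chromatin. The peaks assigned to the HES genes were all those whose summit lay within 100 kb of a transcription start site (TSS) of a protein-coding transcript of a member (GENCODE on hg19), whatever other gene was closer. This rule took 11 of 2926 RBPJ peaks and 3 of 444 L3MBTL3 peaks. HES1 had 6 RBPJ peaks and 1 L3MBTL3 peak, HES4 had 2 and 1, and HES5 had 1 of each. HES2 and HES7 each had 1 RBPJ peak and no L3MBTL3 peak, and HES6 had no peak of either list. The labels give 30000000 to 40000000 aligned reads per library, and the files hold no read counts for single peaks. With 1 library per antibody no value below has a replicate error and no test between conditions was possible. The peak lists hold no expression values, so the identity of the cells could not be checked against markers.

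HES genes encode basic helix-loop-helix-Orange repressors, which bind DNA as dimers and recruit Groucho/TLE corepressors through a short motif at their C-terminus. HES1 and HES5 are classical targets of Notch signalling, HES7 is known for its oscillating expression during somite formation in mouse, and HES6 is known as an inhibitor of HES1. RBPJ is the DNA-binding factor of the Notch pathway. It binds single sites in the TGGGAA family, and Notch activation complexes can also cooperate on 2 RBPJ sites that face each other, for which the HES1 promoter is a classical example. L3MBTL3 is a methyl-lysine reader, and the series title links it with RBPJ and with the histone demethylase KDM1A in the repression of Notch signalling.

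The HES1 and HES4 promoters each carried an RBPJ peak over a facing pair of RBPJ words. Words were sought on both strands: CGTGGGAA or TGTGGGAA (called high-affinity here), CGTGTGAA, TGTGTGAA, CGTGAGAA or TGTGAGAA (weaker), and any other occurrence of the core TGGGAA, which also lies inside the high-affinity words. A pair was a plus-strand word followed by a minus-strand word with 15 to 19 bp between them, at least 1 of them high-affinity. The elements are shown on the strand of the gene, 5′ to 3′, to let them be compared. Capitals mark the words, and the core inside the HES1 spacer. Another element with a pair under an RBPJ peak, in an intron of POC1B, is shown on the plus strand for comparison.
HES1 pair, chr3:193853851-193853882, plus strand: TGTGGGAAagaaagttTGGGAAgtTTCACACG
HES4 pair, chr1:935524-935555, minus strand: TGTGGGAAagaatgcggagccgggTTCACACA
POC1B intron pair, chr12:89845953-89845986, plus strand: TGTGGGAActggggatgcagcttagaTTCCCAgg

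In both HES elements a TGTGGGAA came first along the gene, and a reversed weaker word followed after a spacer of 16 bp. The elements were identical at 22 of 32 positions: 8 of 8 in the first word, 7 of 8 in the second and 7 of 16 in the spacer. Both were found by searching for these words, so the identity within the words follows largely from the search. Only the bases of the spacer were left free by it. Of 11 RBPJ peaks at HES genes 2 (18.2%, 95% Wilson interval 5.14 to 47.7) held a pair within 100 bp of the summit, against 0.137% of all RBPJ peaks, which is 4 of 2926. The other RBPJ peaks with a pair, named after their values were seen, lay in the POC1B intron (72.6 kb from the TSS of GALNT4, fold enrichment 5.68) and in a UTR of CCDC97 (4.16 kb from its TSS, fold 3.35). In those elements the second word was a core word and the spacer was 18 and 15 bp, so the combination of a high-affinity with a weaker word was found in the HES1 and HES4 peaks only among RBPJ peaks. Windows 2 kb to either side of RBPJ summits held 0 pairs in 5852, which allows a share of up to 0.0513% (3 counts of the total; the upper Wilson limit is 0.0656%). Intervals and limits of this kind cover counting error only. The HES1 promoter is a classical example of facing RBPJ sites, so a pair there was known beforehand. The 11 RBPJ peaks are also not independent, since 6 of them lie at HES1. A match of letters describes the sequence and does not show which site was bound.

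The pair was rare at promoters in general. Within 500 bp of a TSS a pair lay at 2 of 6 HES genes, HES1 (known beforehand) and HES4, against 0.0608% of protein-coding genes (12 of 19748). The other 10 were ADCY9, AKR1C3, HTR1F, PPP2R2B, SATL1, STX5, TRUB1, ZNF420, ZNF711 and ZNF799, of which SATL1 and ZNF711 share the same element. HES1 and HES4 were the 2 among these 12 genes with an RBPJ summit within 1 kb, and HES4 the 1 with an L3MBTL3 summit there. The pairs were not all alike. At STX5 both words were TGTGGGAA, with a spacer of 15 bp, and no summit of either list lay within 1 kb. At the rest of the other 10 genes a high-affinity word faced a core word, not a weaker word as at HES1 and HES4.

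The wider promoter sequences show where the words lie, and that the HES5 promoter has words without a peak. For HES1 and HES5 each line ends at the base before the TSS. For HES4 the line ends with the paired words, which lie across the TSS; 29 of its bases are 5′ UTR. All lines are on the strand of the gene, with capitals as above.
HES1 promoter, chr3:193853787-193853936, plus strand: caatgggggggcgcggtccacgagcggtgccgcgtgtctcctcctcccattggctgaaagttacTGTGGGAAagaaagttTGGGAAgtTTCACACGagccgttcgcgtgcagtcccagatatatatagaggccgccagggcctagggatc
HES4 promoter, chr1:935524-935623, minus strand: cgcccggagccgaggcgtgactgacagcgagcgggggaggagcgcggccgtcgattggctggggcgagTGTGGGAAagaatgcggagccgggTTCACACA
HES5 promoter, chr1:2461703-2461942, minus strand: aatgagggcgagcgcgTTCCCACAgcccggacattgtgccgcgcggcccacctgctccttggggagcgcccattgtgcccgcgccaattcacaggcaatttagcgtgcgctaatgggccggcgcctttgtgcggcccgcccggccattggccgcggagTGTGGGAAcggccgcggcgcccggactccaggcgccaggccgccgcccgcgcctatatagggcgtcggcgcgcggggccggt

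At HES1 the high-affinity word was centred 83 bp, the core word 69 bp and the weaker word 59 bp upstream of the TSS. At HES4 the high-affinity word was centred 1 bp and the weaker word 25 bp downstream of the most upstream TSS. The HES5 promoter held 2 copies of TGTGGGAA, 78 and 220 bp upstream of the TSS. They face away from each other with 134 bp between them, so they form no pair. At least 1 high-affinity word lay within 500 bp of a TSS at 3 of 6 HES genes (HES1, HES4 and HES5), against 14.9% of protein-coding genes. Only HES5 among the members had 2 or more, against 1.97% of protein-coding genes. A weaker word was there in 2 of 6 (HES1 and HES4), against 18.6%. Any word or core was found at 5 of 6 members, all but HES6, against 77.8%, so most genes hold the core. HES2 and HES7 had core words but none of the longer words in that window. Of all 2943 genes with a high-affinity word at a promoter, 12.9% had an RBPJ summit within 1 kb, and of the 389 genes with 2 or more, 12.6% did. HES5 belongs to the larger remainder with words and no RBPJ peak.

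Across the family, peaks of both proteins were spread unevenly. Of the 6 HES genes, 5 had an RBPJ summit within 100 kb, against 31.0% of protein-coding genes, and 3 had an L3MBTL3 summit, against 4.53%. Both proteins had a summit in that range at HES1, HES4 and HES5, which is 3 of 6 members against 3.03%. Within 10 kb the counts were 3 of 6 for RBPJ (HES1, HES4 and HES7), against 11.3%, and 2 of 6 for L3MBTL3 (HES4 and HES5), against 1.58%. HES4 was the 1 member with both within 10 kb, against 0.851%. At promoters, taken as 1 kb to either side of a TSS, RBPJ had a summit at 2 of 6 members (HES1 and HES4), against 8.91%, and L3MBTL3 at HES4 alone, against 1.37%. HES4 was thus the 1 of 6 with both at its promoter, against 0.704% of protein-coding genes. These are 6 genes chosen with earlier results known, and the background was not matched on gene activity, CpG content or gene density. Other coding genes within 100 kb numbered 0 at HES1, 4 at HES2 and HES6, 5 at HES5, and 9 at HES4 and HES7. The peaks counted for HES2 and HES5 lay closer to the TSS of other coding genes.

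**Figure D1:**
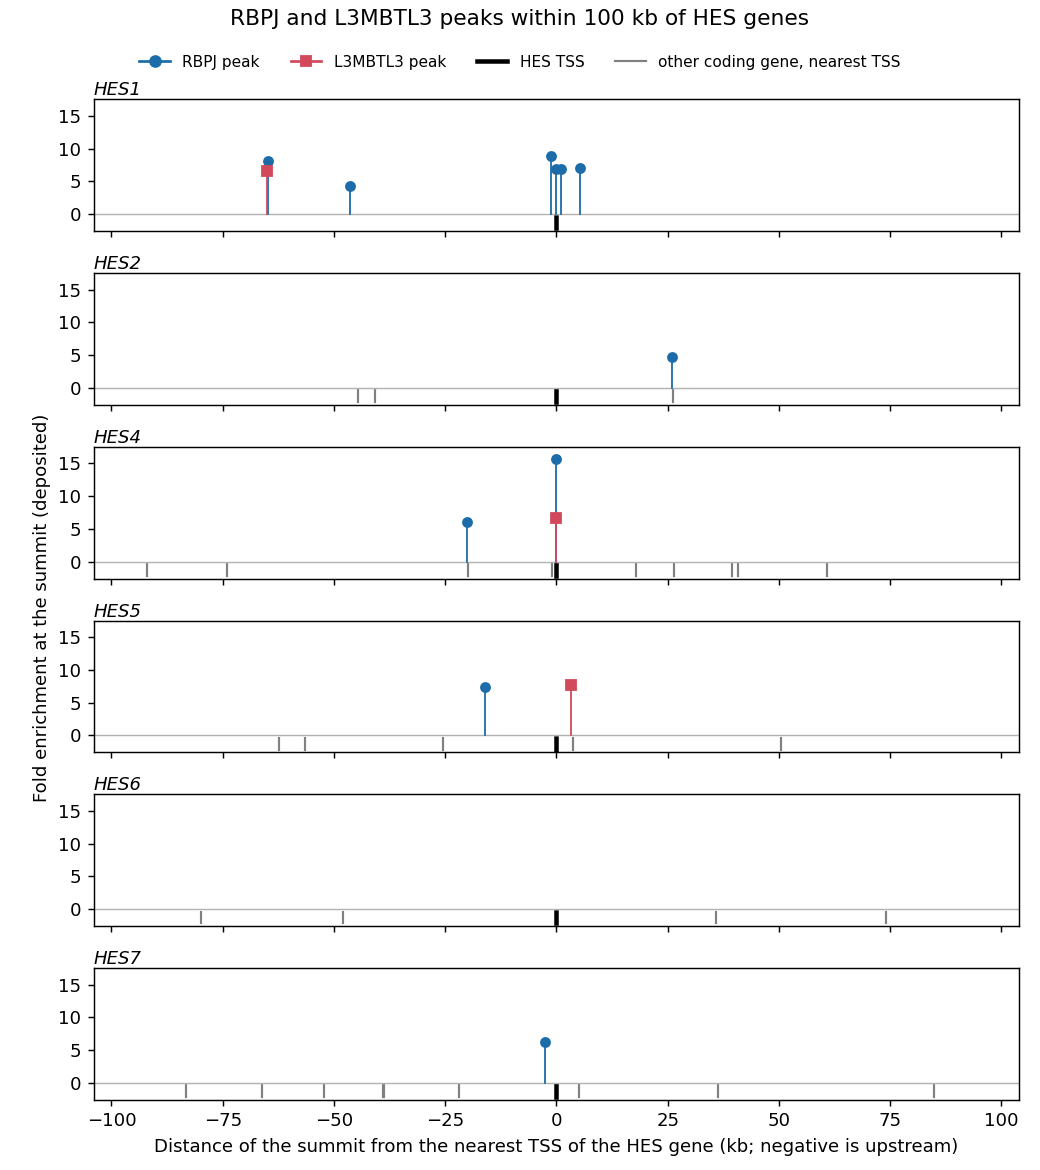
Each panel shows a HES gene with the distance of peak summits from its nearest TSS in kb (x axis) and the deposited fold enrichment (y axis); blue circles are RBPJ peaks, red squares L3MBTL3 peaks, the black bar is the HES TSS and grey bars are the nearest TSS of other protein-coding genes. HES1 has 6 RBPJ peaks and no coding neighbour, HES4 has the highest fold (15.6), and HES6 has no peak.

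The fold enrichment is the caller's ratio of signal at the summit over its local background, as deposited, and was compared only within a list. RBPJ folds at the HES genes ran between 4.33 and 15.6 with a median of 6.87, beside a median of 5.08 over all RBPJ peaks. At or above that list median lay 9 of 11, against 51.5% of all RBPJ peaks. The RBPJ peaks at the HES genes were also wide, with a median of 301 bp beside 94 bp in the list. A -log10 q of at least 5 was reached by 8 of 11, against 21.9% of RBPJ peaks. The 3 L3MBTL3 peaks had folds of 6.56, 6.67 and 7.73, beside a list median of 5.57, so 3 of 3 lay at or above it, against 50.0%. Of these, 2 of 3 had a -log10 q of at least 5, against 23.2%. The 3 L3MBTL3 peaks were not wide, with a median of 79.0 bp beside 86.0 bp in their list.

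**Figure D2:**
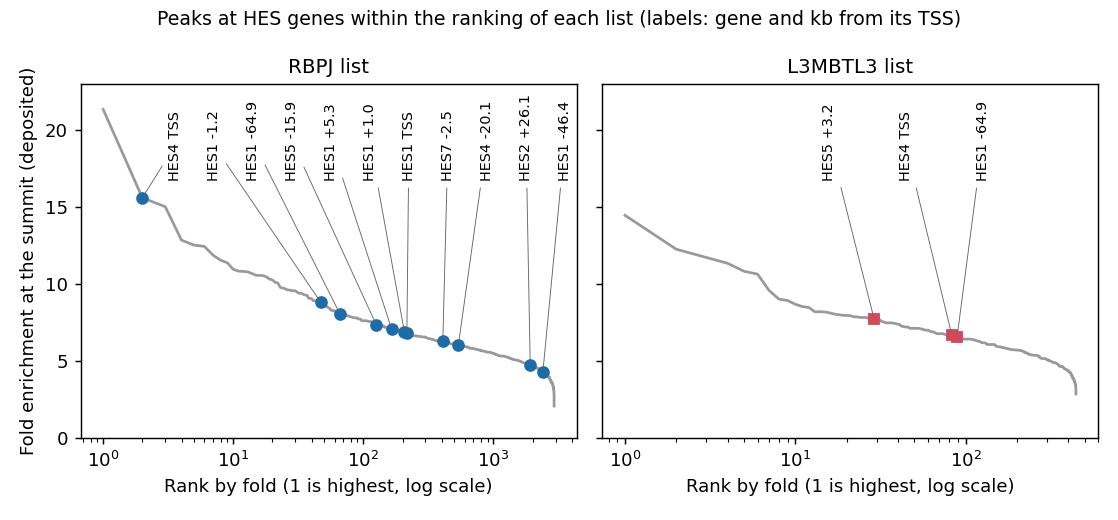
Peaks of each list are ordered by fold (x axis, rank on a log scale; y axis, deposited fold enrichment); the grey line is the whole list and the marked points are peaks at HES genes, labelled with the gene and the distance in kb from its TSS. The HES4 promoter peak is the second of the RBPJ list, and the HES1 peak 46.4 kb upstream is the lowest of the members.

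HES4 had the highest RBPJ fold of the family and was the only member with a shared promoter peak. The RBPJ peak (chromosome 1, 935342 to 935715) had a fold of 15.6, the rank 2 of 2926, and a -log10 q of 38.9. Its summit lay in the 5′ UTR, 20 bp downstream of the most upstream TSS and between the paired words, 5 bp from the centre of the weaker and 19 bp from that of the high-affinity word. The L3MBTL3 peak (935332 to 935664) had a fold of 6.67, the rank 83 of 444, and a -log10 q of 6.62. Its summit lay 37 bp from the RBPJ summit, on the side away from the high-affinity word, whose centre was 56 bp off. It was the only L3MBTL3 peak of the list with a pair within 100 bp of the summit, which is 1 of 3 at HES genes, against 0.225%. The promoter is crowded: a TSS of ISG15, an interferon-induced ubiquitin-like protein, lies on the other strand 966 bp upstream of HES4, so the RBPJ summit is also within 1 kb of ISG15. A second RBPJ peak (955571 to 955756, fold 6.02, -log10 q 4.94, rank 537) lay 20.1 kb upstream of HES4 but 152 bp into AGRN, which encodes the extracellular matrix protein agrin, in coding sequence. It held none of the words and was found with RBPJ only. The other 7 coding genes within 100 kb of HES4 had no peak of either list at their promoters.

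HES1 had the densest RBPJ cluster of the family. In order along the DNA, its 6 RBPJ summits lay 64.9 kb, 46.4 kb, 1.23 kb and 4 bp upstream and 1.02 and 5.29 kb downstream of the TSS, with folds of 8.07, 4.33, 8.82, 6.80, 6.87 and 7.07. The 4 summits nearest the gene had folds of 6.80 to 8.82, and the weakest peak, 46.4 kb upstream, stood alone between them and the farthest element. At least 4 RBPJ summits within 10 kb of a TSS were found for 0.182% of protein-coding genes (36 of 19748), and at least 6 within 100 kb for 1.24%. HES1 had 0 other protein-coding TSS within 100 kb, and the comparison with genes like it in this was added after its peaks were seen. Among the 2389 genes without such a neighbour, 13.5% had any RBPJ summit within 100 kb and 3.39% an L3MBTL3 summit, of which HES1 had 1. At least 6 were found for 0.0837% of them, which is 2 genes, HES1 and BHLHE40, and the same genes were the 2 with at least 4 within 10 kb. BHLHE40, named here after its values were seen, encodes another bHLH-Orange repressor. Counting each RBPJ peak for its nearest protein-coding gene gave HES1 7 peaks, a number reached by 0.0203% of genes (MYC, PLEC, BHLHE40 and HES1). Such a count favours genes without coding neighbours, such as HES1. Its share was taken over all protein-coding genes and not among the 2389. The seventh HES1 peak lay beyond the 100 kb limit, 132833 bp upstream, with a fold of 6.43, a -log10 q of 8.85 and 1 high-affinity word. The farthest HES1 peak within the limit was the element 64866 bp upstream, so neither lay close to it.

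**Figure D3:**
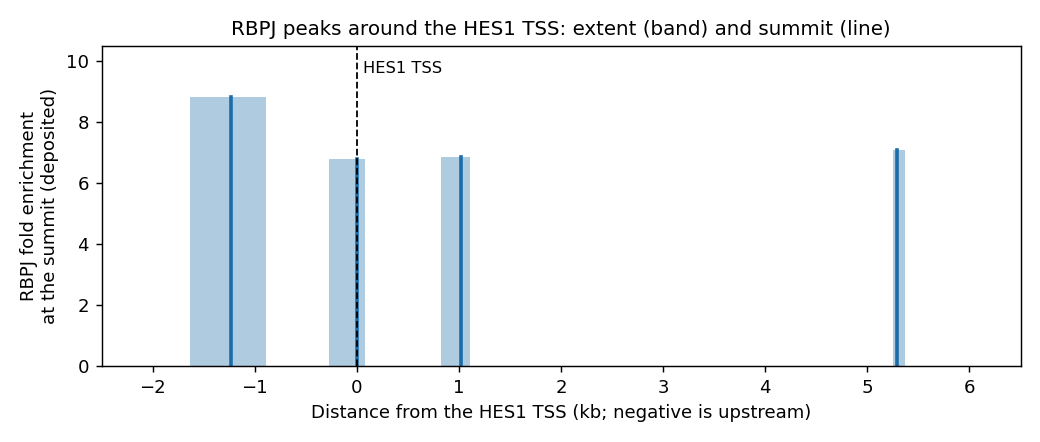
Bands show the extent and lines the summit of the 4 RBPJ peaks nearest the HES1 TSS (x axis, distance from the TSS in kb, negative is upstream; y axis, deposited fold enrichment). The widest band, 1.23 kb upstream, has the highest fold (8.82), and no L3MBTL3 peak lies in this range.

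The HES1 peaks differed in width, in words and in the second protein. The peak 1.23 kb upstream (chromosome 3, 193852304 to 193853042, -log10 q 13.5, rank 47) spanned 739 bp and was the widest of all 2926 RBPJ peaks. It lay between genes, 305 bp from the TSS of a long non-coding RNA (lncRNA), ENSG00000289385, and its summit was 6 bp from the centre of a core word without the flanking bases of a high-affinity word. The promoter peak (193853660 to 193854017, -log10 q 10.6, rank 216) had its summit 4 bp from the TSS, so the paired words lay to its upstream side, 79 bp (high-affinity) and 55 bp (weaker) from the summit. At HES4 the summit lay between the words, so the summits of the 2 promoter peaks stood differently to the pair. The peak 1.02 kb downstream (193854765 to 193855048, -log10 q 7.25, rank 207) lay in an intron of HES1, with CGTGGGAA 14 bp from its summit. The peak 5.29 kb downstream (193859192 to 193859301, -log10 q 8.59, rank 165) lay beyond the gene, with the weaker word CGTGAGAA 47 bp from its summit. The peak 46.4 kb upstream (193807451 to 193807518, -log10 q 1.82, rank 2400) held no RBPJ word. Its window held the AP-1 word (TGACTCA or TGAGTCA) and the TEAD word GGAATG. The TEAD word also lay in the window of the RBPJ peak 64.9 kb upstream. The peak 46.4 kb upstream was the only peak of either list at HES1 with a fold below its list's median.

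The far upstream element was where L3MBTL3 was found at HES1. The RBPJ peak (193788824 to 193789253, fold 8.07, -log10 q 11.5, rank 66) overlapped an L3MBTL3 peak (193788993 to 193789071, fold 6.56, -log10 q 4.55, rank 89 of 444) with summits 61 bp apart. The element lay in an intron of 1 lncRNA (ENSG00000276407) and 257 bp from the TSS of another, LINC02028, measured at the RBPJ summit. HES1 was the nearest protein-coding gene at 64.9 kb. A TGTGGGAA on the minus strand was centred 14 bp from the RBPJ summit and 47 bp from the L3MBTL3 summit, inside both peaks. The other 5 RBPJ peaks of HES1 were 18.5 kb to 70.2 kb from the nearest L3MBTL3 summit, that of the far element. Absence from a list means that no peak passed the caller's threshold in 1 library, not that the protein was absent.

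The words under the HES1 peaks outside the promoter, and under the HES5 peaks, are shown on the plus strand to let their flanks be compared. The lines of the far element and of the HES5 peak beside PANK4 are whole L3MBTL3 peaks. Capitals mark the words, reversed (TTCCCA) where the word is on the minus strand.
HES1 far upstream, chr3:193788993-193789071: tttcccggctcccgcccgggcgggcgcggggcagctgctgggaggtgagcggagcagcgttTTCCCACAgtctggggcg
HES1 upstream, chr3:193852680-193852739: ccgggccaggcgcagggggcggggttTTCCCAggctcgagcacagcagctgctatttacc
HES1 intron, chr3:193854939-193854998: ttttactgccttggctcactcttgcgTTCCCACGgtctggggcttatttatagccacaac
HES1 downstream, chr3:193859243-193859302: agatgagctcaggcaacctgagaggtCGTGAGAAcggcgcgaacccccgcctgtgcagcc
HES5 upstream, chr1:2477752-2477811: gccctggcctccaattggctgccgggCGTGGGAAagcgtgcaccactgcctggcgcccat
HES5 beside PANK4, chr1:2458464-2458520: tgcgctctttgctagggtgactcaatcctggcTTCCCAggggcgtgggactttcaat

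HES5 had peaks of both proteins nearby, but apart from each other and from its promoter. The L3MBTL3 peak (chromosome 1, 2458464 to 2458520, fold 7.73, -log10 q 8.09, rank 29 of 444) lay 3201 bp downstream of the HES5 TSS and 466 bp upstream of a TSS of PANK4, a member of the pantothenate kinase family. It had the highest L3MBTL3 fold of the family. Its summit was 2 bp from the centre of a core word, and its window also held the AP-1 word. The RBPJ peak (2477601 to 2477908, fold 7.33, -log10 q 7.81, rank 126) lay 15.9 kb upstream of HES5, 9.44 kb from TNFRSF14, which encodes a TNF receptor family member, and 150 bp from the TSS of a lncRNA, ENSG00000272449. It held CGTGGGAA 142 bp from the summit, inside the peak but outside the window of 100 bp. The summits of the 2 proteins were 19.1 kb apart. No RBPJ summit lay within 10 kb of the HES5 TSS, where the 2 copies of TGTGGGAA are.

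HES7, HES2 and HES6 had the fewest peaks. The HES7 peak (chromosome 17, 8029700 to 8030000, RBPJ fold 6.29, -log10 q 5.36, rank 408) lay 2.53 kb upstream of the TSS, 10 bp from the TSS of a lncRNA, ENSG00000288993. Among protein-coding genes HES7 was nearest. The peak held a core word 137 bp from its summit and no longer word, and the nearest L3MBTL3 summit was over 9 Mb away, at 9176764 bp. The HES7 neighbours within 100 kb, 9 coding genes that include the circadian gene PER1 and the mitotic kinase gene AURKB, had no peak of either list at their promoters. The HES2 peak (chromosome 1, 6453853 to 6453910, RBPJ fold 4.75, -log10 q 2.57, rank 1917) lay 26.1 kb downstream of HES2 and 57 bp upstream of ACOT7, which encodes an acyl-CoA thioesterase. It was below the median fold of the list, had a core word 60 bp from its summit that lay outside the peak, and would be assigned to ACOT7 by distance. HES2 and ESPN, an actin-bundling protein gene 106 bp away on the other strand, had no peak at their promoters. HES6, with 4 coding neighbours within 100 kb, had no peak of either list within 200 kb. That range takes in PER2, also a circadian gene, 47.9 kb upstream.

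High-affinity words near RBPJ summits were found at HES1 and HES4. Within 100 bp of the summit, 4 of 11 RBPJ peaks held such a word (36.4%, 15.2 to 64.6), against 8.51% of all RBPJ peaks and 1.56% of flanking windows. These were the HES4 promoter and, at HES1, the far element, the promoter and the intron. None of the 4 held 2 such words. With the deposited peak as the window the count was 5, which adds the HES5 peak, and with 200 bp to either side of the summit it was 6. The share of the whole list was taken at 100 bp only, so these counts have no background beside them. For L3MBTL3 the count was 2 of 3, against 10.1% of its list, and the words were those of the HES4 promoter and the HES1 far element, already counted for RBPJ. A core, alone or within a longer word, lay in 6 of 11 RBPJ windows (54.5%, 28.0 to 78.7), beside 29.5% of all RBPJ peaks. Words of other factors showed no common content: in RBPJ windows the AP-1 word occurred in 1, the TEAD word in 2, the E-box CACGTG in 1, the N box CACNAG in 4 and the GC box GGGGCGGGG in 4 of 11. In the whole RBPJ list their shares were 11.2%, 13.7%, 6.87%, 26.4% and 21.8%, in the same order. The N box is a sequence HES proteins bind. It lay in the windows of the HES1 promoter peak and of the AGRN, ACOT7 and HES7 peaks, and in 28.0% of windows 2 kb from RBPJ summits.

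**Figure D4:**
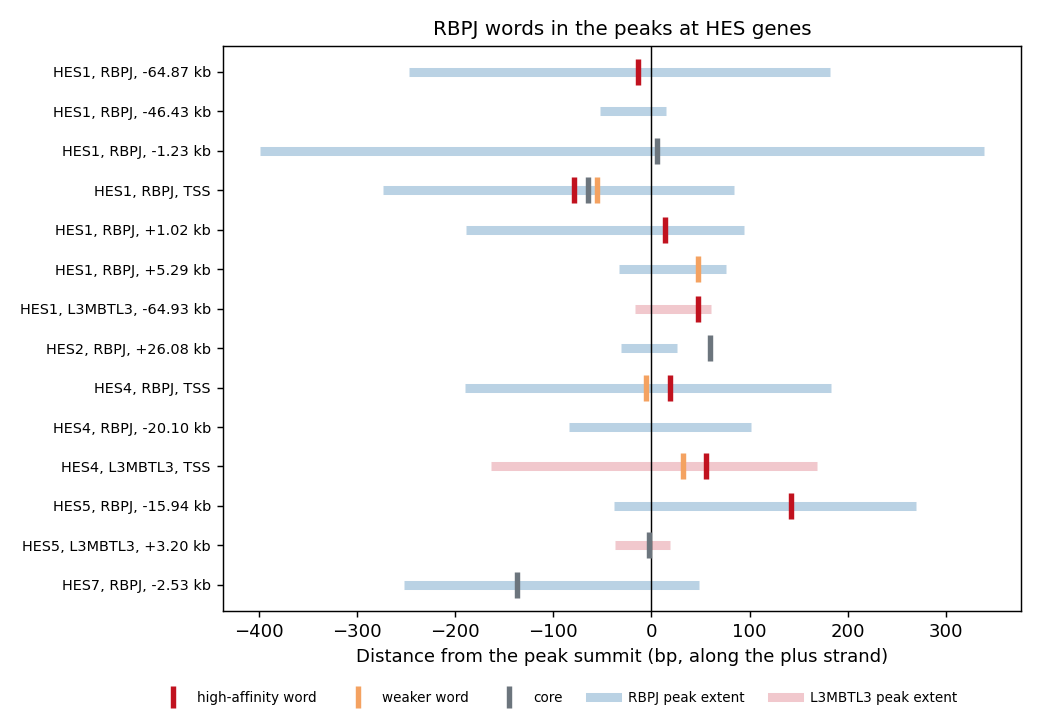
Each row is a peak within 100 kb of a HES gene, named by gene, antibody and distance from the TSS, with the distance from its summit in bp along the x axis. Bands are the deposited peak extents, and ticks are the centres of high-affinity (red), weaker (orange) and core (grey) words; the HES1 and HES4 promoter peaks show the paired ticks.

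RBPJ and L3MBTL3 peaks overlapped by at least 1 bp at 2 of 11 RBPJ peaks, against 4.37% of the list, and at 2 of 3 L3MBTL3 peaks, against 28.6%. The overlaps were the HES4 promoter and the HES1 far element. Of the RBPJ peaks at the HES genes, 4 of 11 lay within 1 kb of a protein-coding TSS (those of HES1, HES4, AGRN and ACOT7), against 64.1% of RBPJ peaks. The HES1 peaks at 1017 and 1234 bp from the TSS fell outside this width, and with 2 kb, a width added after the peaks were seen, the count was 6 of 11, against 66.8%. Of L3MBTL3 peaks 2 of 3 did (HES4 and PANK4), against 82.7%. Of the 7 RBPJ peaks away from coding TSS, 4 lay within 1 kb of a TSS of another gene type, against 21.6% of 1050 such RBPJ peaks. They were the HES1 peaks 64.9 and 1.23 kb upstream and the peaks of HES5 and HES7, and this count was added after their positions were seen. The same was true of the 1 L3MBTL3 peak away from coding TSS, against 31.2% of 77. By nearest protein-coding TSS, 8 of 11 RBPJ and 2 of 3 L3MBTL3 peaks belonged to a HES gene, and the others to AGRN, ACOT7, TNFRSF14 and PANK4.

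**Figure D5:**
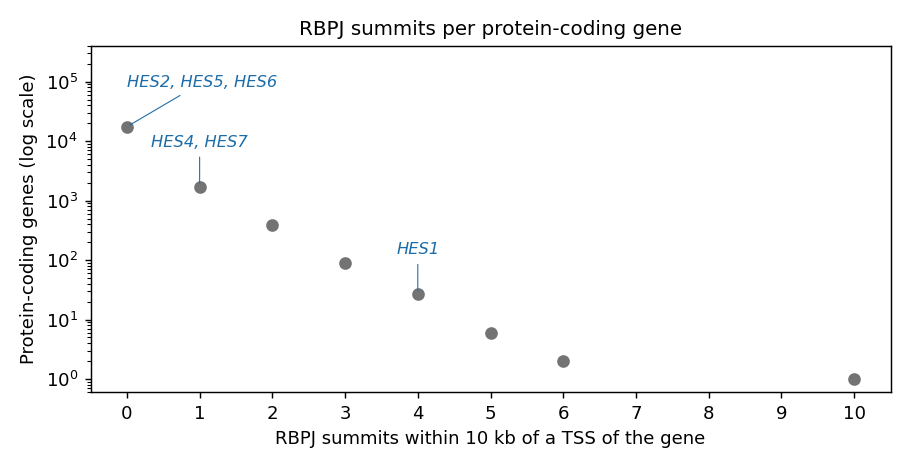
Points give the number of protein-coding genes (y axis, log scale) with each number of RBPJ summits within 10 kb of a TSS (x axis), with the HES genes named at their own number. HES1 lies at 4 summits, reached or passed by 36 genes, HES4 and HES7 at 1, and HES2, HES5 and HES6 at 0.

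The relatives of the HES genes gave a comparison within the bHLH-Orange family. Of 7 other members, 2 had an RBPJ summit within 10 kb (HEY2 and BHLHE40), against 11.3% of protein-coding genes. An L3MBTL3 summit lay in that range at 2 (HEY1 and HEY2), against 1.58%, and both at 1 (HEY2), against 0.851%. HEY1 and HEY2 encode Notch-induced repressors. HEY2, like HES4, had both proteins at its promoter, with an RBPJ fold of 8.86 and an L3MBTL3 fold of 11.7. HEY1 had 2 L3MBTL3 summits at its promoter (highest fold 11.3), while its 2 RBPJ summits within 100 kb lay beyond 10 kb. Within 10 kb BHLHE40 had 5 RBPJ summits (highest fold 6.72) and HES1 had 4, without L3MBTL3 in that range. Within 100 kb HES1 had 1 L3MBTL3 summit and BHLHE40 had 0. HES3, HEYL, HELT and BHLHE41 had no summit within 100 kb. Of the 6 Groucho/TLE family genes (TLE1 to TLE6), 1 had an RBPJ summit within 10 kb, against 11.3% of protein-coding genes. This was TLE1 (2 summits, highest fold 5.27). TLE2 to TLE6 had no summit of either list within 100 kb.

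Genes with the most similar peak pattern were sought for the 3 members with both proteins within 100 kb. Likeness was the Euclidean distance over 4 values, the summed folds within 1 kb and from 1 to 100 kb for each antibody, in 2 libraries. For HES1 (6.80 and 35.2 for RBPJ, 0 and 6.56 for L3MBTL3) the nearest genes were ZC3H3, PYCR3 and EEF1D, at distances of 4.48 to 5.58. For HES4 (15.6 and 6.02, 6.67 and 0) they were KLF10, HNRNPU and GNAQ, at 2.78 to 6.15. For HES5 (0 and 7.33, 0 and 7.73) they were KDM4A, RP2 and LY6D, at 0.762 to 1.63. ZC3H3, PYCR3 and EEF1D had the same L3MBTL3 values (0 and 5.39). A peak counted for every gene in range, so genes near each other can hold the same peaks, which was not checked here.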

How the data were processed

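RBPJ and L3MBTL3 ChIP-seq peak lists of MDA-MB-231 cells were used, 1 library each. Per the labels' protocols, Trimmomatic removed adaptors and BWA 0.7.15 placed the reads on hg19. The submitters' processing notes name MACS2 as a tool. Its version, cutoff and control were not given in the sources used here. The deposited files give positions, a fold enrichment (ratio) at the summit, -log10 p and -log10 q, and a score that equals 10 times the -log10 q, truncated. The largest q was 0.0487 (RBPJ) and 0.0498 (L3MBTL3). No read counts come with the peaks, so no error can be put on a fold, and the depth is known only from the labels (30000000 to 40000000 aligned reads).

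Coordinates are 1-based hg19. Sequence came from GRCh37 and genes from GENCODE 44 lifted to it (19748 protein-coding genes on chromosomes 1 to 22 and X), read with pysam 0.24.0 in Python 3.11.15. Distances ran from the summit to the nearest TSS of a protein-coding transcript. Word searches and distances were tested on simulated data. Counts stand beside the same count over all genes or peaks, with 95% Wilson intervals for shares, and no test was run. All members and every peak within 100 kb were named, with the nearest coding gene, relatives with a summit within 10 kb and the 3 genes most alike, outside 200 kb of a member. Members and gene lists were chosen with earlier results of these data known. Alternatives varied the threshold, distance, TSS set, promoter and word windows, overlap, words and spacer.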

Additional observations from a re-analysis of the deposited data

How the results depend on the processing

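Of 63 comparisons of 11 counts with an alternative setting, 57 stayed within 1.5 times the reported count and 6 did not. The RBPJ peaks shared with L3MBTL3 were 1 rather than 2 when peaks with a -log10 q under 5 were dropped, where the L3MBTL3 peak of the HES1 far element (4.55) drops out, and also 1 with a distance of 50 kb, which leaves that element out. For the same reasons the L3MBTL3 peaks with a high-affinity word were 1 at each of these settings, and they were 0 with a window of 50 bp to either side of the summit, against 2. Asking for 2 high-affinity words left 0 pairs, against 2, since the HES1 and HES4 pairs each hold a weaker word. RBPJ peaks within the distance limit numbered 8 to 14 over the alternatives, beside 11, and HES genes with an RBPJ promoter peak were 2 at each setting. A spacer of 10 to 30 bp gave the same 2 pairs at HES genes, beside 9 of 2926 RBPJ peaks (0.308%) and 3 of 444 L3MBTL3 peaks (0.676%). No paired analysis was possible because each antibody has 1 library and no result comes from a test. The RBPJ peaks at coding promoters were 4 with a promoter of 500 bp and 6 with 2 kb, beside 4, and the L3MBTL3 peaks 2 at each, widths chosen for these counts after seeing the data. Each list comes from 1 library, and the part of sequencing depth in which peaks are missing from a list was not tested.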
